A study of Mus musculus with 43 samples.

Results

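The genes that carry cells through S phase were examined here as 50 named genes of DNA replication in mouse visual cortex. They were listed by symbol, with earlier results of these data known, and all 50 were found among the 23953 gene symbols of the deposited files. The list holds 10 genes of the pre-replication complex and the Mcm2-7 helicase, 10 of helicase activation and fork stability, 7 polymerase and primase subunits, and 8 genes of the sliding clamp, its loader and Okazaki fragment maturation. It also holds 4 genes of nucleotide supply, 7 E2F and cyclin E genes, and 4 genes of chromatin assembly and licensing control.

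The series holds 43 RNA sequencing libraries in 9 groups. In CK-p25 mice, p25, which is a cleaved and overactive form of the Cdk5 activator p35, is switched on by Camk2a-tTA and tetO-CDK5R1/GFP, hence in excitatory forebrain neurons, and had been induced for 6 weeks. Sorted NeuN+ neuronal nuclei came from CK-p25 mice given 43 days of GENUS, a visual stimulation at 40 Hz (4 libraries), from CK-p25 mice without stimulation (5 libraries) and from CK mice, which the labels call wild type controls (5 libraries). Microglia sorted for CD11b and CD45 came from the same 3 kinds of mice (4 libraries each). A separate set of neuronal nuclei came from P301S mice (the PS19 line, mutant human tau under the Prnp promoter, 8 months of age) given 22 days of GENUS (5 libraries), from P301S mice without stimulation (6 libraries) and from wild type mice, WT (6 libraries). No age is given for the CK-p25, CK and WT mice, and the labels do not say whether the CK mice carry Camk2a-tTA alone. The NeuN sort takes every kind of neuron, so neurons in which the Camk2a promoter is silent are in these libraries too. Nothing in the labels says that libraries of a group came from separate animals, so n counts libraries, and p-values measure only the spread between them.

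Values are FPKM, a fragment measure divided by transcript length and by the library's mapped total. The neuron libraries hold nuclear RNA made with a total RNA kit and the microglia libraries hold total RNA made with a full-length cDNA kit, so levels are not compared between the cell types. Rbfox3, which encodes NeuN, averaged 83.5, 80.9 and 89.4 FPKM in GENUS CK-p25, untreated CK-p25 and CK neurons, and under 1 FPKM in every microglia group. Cx3cr1, a microglial chemokine receptor, averaged 660, 732 and 1272 FPKM in the same order of groups in microglia. The gene from which the p25 transgene derives, Cdk5r1, averaged 24.97 and 25.01 FPKM in GENUS and untreated CK-p25 neurons and 27.1 FPKM in CK neurons, and Mapt averaged 57.3 FPKM in untreated P301S and 55.2 FPKM in WT neurons. The value of a mouse gene need not count reads from a transgene, so these values do not check the genotypes. Correlations between replicates ran from 0.878 to 0.912 for the CK-p25 neuron set, from 0.837 to 0.886 for the P301S set and from 0.946 to 0.976 for microglia.

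Before S phase, the origin recognition complex with Cdc6 and Cdt1 loads the Mcm2-7 ring onto DNA as an inactive double ring. Cdc7 and cyclin E/Cdk2 activity then recruits Cdc45 and the GINS complex, which turn the ring into a working helicase, and primase and the replicative polymerases follow. The genes for most of these proteins are targets of E2F transcription factors, which the retinoblastoma family holds in check in resting cells, and their transcripts are low in differentiated neurons. Re-expression of cell cycle genes in neurons has been described in models of neurodegeneration, p25 overexpression among them.

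Among the genes with a promoter in the table, promoters are shown for the 6 with the largest rise in untreated CK-p25 neurons and for the 2 called genes with the smallest rise, so that the regulatory sequence of strong and weak responders can be set side by side. RefSeq promoters on build GRCm38.p6, from 250 bases before to 50 bases after the annotated start, were matched for 41 of the 50 genes. The genes without a match were Mcm4, Rfc2, Ccne2, Prim2, Pole, Gins4, Tipin, Gins2 and Gins1. Each sequence runs 5′ to 3′ on the gene's own strand, and capitals mark a copy of one of 4 E2F words (TTTCCCGC, TTTCGCGC, TTTGCCGC or TTTGGCGC, searched on both strands).
Mcm3: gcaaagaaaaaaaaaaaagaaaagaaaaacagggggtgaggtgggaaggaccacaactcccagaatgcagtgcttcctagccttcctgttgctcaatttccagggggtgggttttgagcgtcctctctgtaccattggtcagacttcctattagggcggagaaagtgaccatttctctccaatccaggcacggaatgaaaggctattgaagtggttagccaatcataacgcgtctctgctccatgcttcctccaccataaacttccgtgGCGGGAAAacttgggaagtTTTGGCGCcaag
Mcm2: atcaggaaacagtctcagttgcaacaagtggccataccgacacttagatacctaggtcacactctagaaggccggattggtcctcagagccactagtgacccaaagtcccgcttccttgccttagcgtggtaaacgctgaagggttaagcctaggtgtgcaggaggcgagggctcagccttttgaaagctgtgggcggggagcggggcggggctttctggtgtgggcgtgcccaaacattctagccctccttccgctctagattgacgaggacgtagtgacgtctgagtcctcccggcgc
Timeless: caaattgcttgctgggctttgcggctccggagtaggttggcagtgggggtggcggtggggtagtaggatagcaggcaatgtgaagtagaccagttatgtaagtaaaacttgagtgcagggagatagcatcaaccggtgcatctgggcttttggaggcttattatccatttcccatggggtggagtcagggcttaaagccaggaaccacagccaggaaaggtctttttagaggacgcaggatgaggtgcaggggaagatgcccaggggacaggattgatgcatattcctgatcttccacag
Clspn: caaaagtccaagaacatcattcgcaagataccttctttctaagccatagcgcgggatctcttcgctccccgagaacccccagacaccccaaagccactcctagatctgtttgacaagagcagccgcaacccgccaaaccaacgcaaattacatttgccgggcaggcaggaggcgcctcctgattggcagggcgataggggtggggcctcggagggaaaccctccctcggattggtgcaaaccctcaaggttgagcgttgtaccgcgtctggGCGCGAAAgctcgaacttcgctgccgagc
Cdc45: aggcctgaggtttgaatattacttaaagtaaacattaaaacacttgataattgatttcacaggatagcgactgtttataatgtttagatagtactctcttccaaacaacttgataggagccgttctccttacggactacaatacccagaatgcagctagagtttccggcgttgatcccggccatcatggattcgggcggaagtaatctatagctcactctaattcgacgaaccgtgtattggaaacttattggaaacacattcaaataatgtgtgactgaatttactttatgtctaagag
Mcm6: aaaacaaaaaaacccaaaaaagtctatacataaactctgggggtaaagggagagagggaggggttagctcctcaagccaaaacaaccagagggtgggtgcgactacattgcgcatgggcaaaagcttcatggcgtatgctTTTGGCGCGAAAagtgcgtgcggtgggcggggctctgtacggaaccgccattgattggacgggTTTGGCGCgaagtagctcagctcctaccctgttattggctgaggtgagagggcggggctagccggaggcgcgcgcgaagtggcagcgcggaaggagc
Dtl: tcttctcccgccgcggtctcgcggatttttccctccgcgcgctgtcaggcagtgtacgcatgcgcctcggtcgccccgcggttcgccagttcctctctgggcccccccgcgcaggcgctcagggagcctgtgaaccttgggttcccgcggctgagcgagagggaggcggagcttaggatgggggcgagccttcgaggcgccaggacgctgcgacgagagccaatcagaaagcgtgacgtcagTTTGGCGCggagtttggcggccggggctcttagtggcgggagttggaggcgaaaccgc
Orc6: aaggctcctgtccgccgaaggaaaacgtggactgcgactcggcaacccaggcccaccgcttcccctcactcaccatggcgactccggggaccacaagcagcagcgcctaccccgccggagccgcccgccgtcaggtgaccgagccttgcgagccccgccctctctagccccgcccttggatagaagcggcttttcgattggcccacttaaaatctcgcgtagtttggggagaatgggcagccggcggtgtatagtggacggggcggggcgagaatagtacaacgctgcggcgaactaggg

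The Mcm3 window, at chr1:20820263-20820562 on the minus strand, held 2 E2F words, at 20 and 39 bases after the start, and 3 copies of CCAAT, the letters bound by NF-Y. The Mcm6 window, at chr1:128359656-128359955 on the minus strand, held 3 E2F words, of which the first and second overlap, and 2 copies of CCAAT. The Clspn window (chr4:126556730-126557029, plus strand) and the Dtl window (chr1:191575495-191575794, minus strand) held 1 E2F word each. No copy of these words lay in the windows of Mcm2 (chr6:88898731-88899030, minus strand), Timeless (chr10:128237816-128238115, plus strand), Cdc45 (chr16:18811923-18812222, minus strand) or Orc6 (chr8:85299382-85299681, plus strand). Strong and weak responders thus stood on both sides of this count.

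Over all 41 matched genes, 19 held an E2F word, 46.3%, against 704 of 27025 genes in the promoter table, 2.6%. Among the 22 matched genes that rose in untreated CK-p25 neurons, 12 held one, 54.5%, against 4 of 13 matched genes that were tested and did not pass, 30.8%. Of the 6 matched genes that were not tested, 3 held one, 50%. These shares were not tested against each other. CCAAT, on either strand, was found in 25 of 41 genes, 61%, against 41.1% of all genes in the promoter table. TTTGAA, the core letters of the CHR element of late cell cycle genes, was found in 8 of 41 genes, 19.5%, against 20.2% of all genes in the promoter table. A match is a run of letters in a fixed window, and binding was not measured.

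Untreated CK-p25 neurons against CK neurons gave the clearest change. Of the 50 genes, 43 passed the filter of a mean of 1 FPKM over the 14 libraries and entered the test, and 25 of these were called higher and 0 lower, against 0.891% of all 12567 tested genes called higher and 0.119% called lower (limma on log2(FPKM + 1), Benjamini-Hochberg adjusted over all tested genes, threshold 0.05). The filter used all 3 groups, and 13 of the 43 tested genes had a CK mean under 1 FPKM and so entered through the CK-p25 libraries. Among the 30 genes whose CK mean was at least 1 FPKM, 15 were called higher. The list was chosen with earlier results of these data known. An excess over the background, here or in the other comparisons, is therefore not an independent test. The median log2 change of the 43 tested genes was 1.03, against -0.00 over all tested genes. Counted over all 50 genes, 46 had a higher mean in untreated CK-p25 neurons, and in 29 every CK-p25 library lay above every CK library. Among tested genes, groups did not overlap in 27 of 43, against 2.05% of all tested genes. Because these are bulk libraries, more nuclei with these transcripts cannot be told apart from more transcripts per nucleus.

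**Figure D1:**
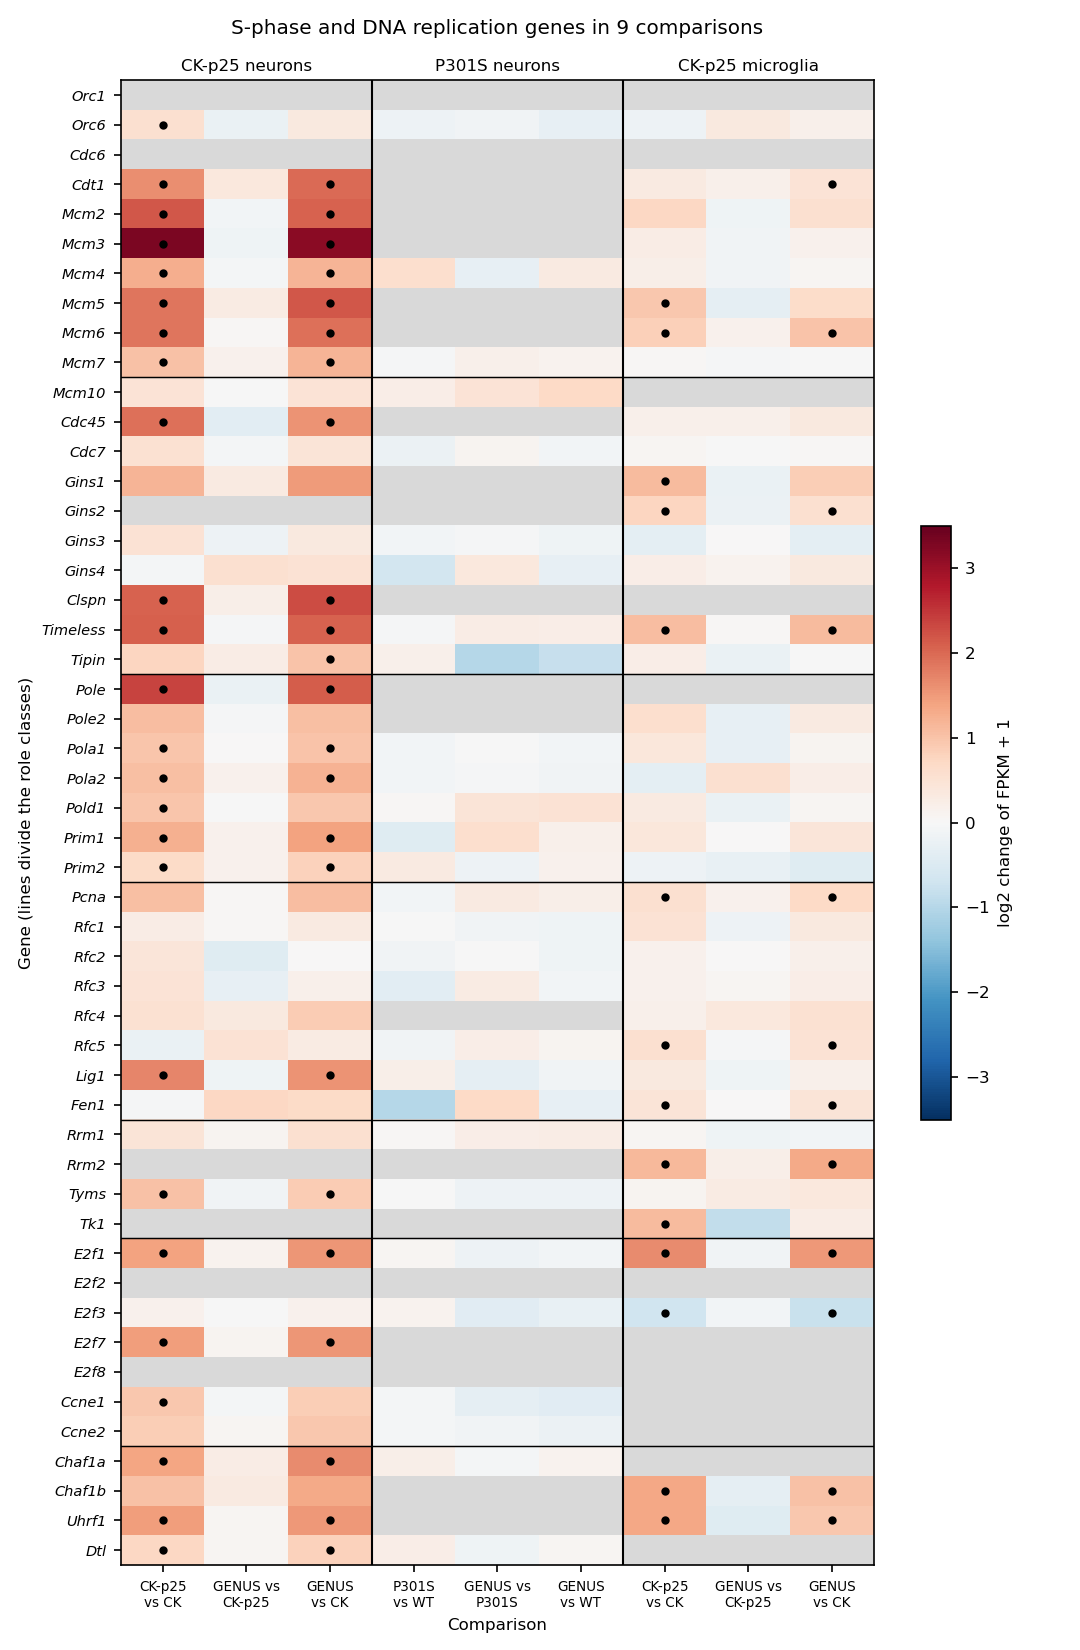
Change of each of the 50 genes, ordered by role, in the 9 comparisons, as the difference in log2(FPKM + 1). Marks show the calls, and the untreated and GENUS CK-p25 neuron columns against CK hold 25 and 23 calls, while the 3 P301S columns hold 0.

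In the heat map of changes by role, the median change and the share of calls differed between roles. Licensing factors and helicase subunits had a median log2 change of 1.75 with 8 of 8 tested genes called. Polymerases and primase had 1.04 with 6 of 7 called, and chromatin assembly and licensing control 1.21 with 3 of 4. E2F and cyclin E genes had 0.94 with 3 of 5 called, nucleotide supply 0.74 with 1 of 2, and helicase activation and fork stability 0.74 with 3 of 9. The clamp, its loader and Okazaki maturation had 0.46 with 1 of 8 called. These medians were not tested against each other, and the filter bears on them. Cdt1, Mcm2, Mcm3, Mcm5 and Mcm6 had a CK mean under 1 FPKM and entered through the CK-p25 libraries. Every gene of the clamp group had a CK mean above 1 FPKM. The order of the roles is therefore not read as a result.

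All 6 subunits of the Mcm2-7 helicase rose in untreated CK-p25 neurons. Of these, Mcm2, Mcm3, Mcm5 and Mcm6 had a CK mean under 1 FPKM and so entered the test through the CK-p25 libraries. Mcm3 had 7.96, 11.03, 11.24, 10.04 and 7.54 FPKM in untreated CK-p25 neurons, against 0, 0, 0.303, 0 and 0 FPKM in CK neurons. It was listed at 0 in 4 of 5 CK libraries, and the lowest CK-p25 library stood far above the only CK library with a value (log2 change 3.31, SE 0.17, limma adjusted p = 8.21e-08). Mcm2 had 4.18, 7.41, 8.94, 5.17 and 5.60 FPKM in CK-p25 neurons, against 1.21, 0, 0.9002, 0.544 and 0.446 FPKM in CK neurons. Mcm5 had 4.75, 5.95, 4.02, 5.09 and 6.07 FPKM in CK-p25 neurons, against 1.045, 0.562, 0.886, 0.535 and 0.439 FPKM in CK neurons. Mcm6 had 4.71, 8.68, 5.32, 6.95 and 4.69 FPKM in CK-p25 neurons, against 1.24, 0.669, 0.452, 0.637 and 1.57 FPKM in CK neurons. In these 3 subunits the groups did not overlap, with log2 changes of 2.17 for Mcm2 (SE 0.25, limma adjusted p = 0.000441), 1.87 for Mcm5 (SE 0.16, limma adjusted p = 1.68e-05) and 1.89 for Mcm6 (SE 0.25, limma adjusted p = 0.00101).

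Mcm4 and Mcm7, the subunits with the highest CK levels, changed least. Mcm4 averaged 7.63 ± 1.89 FPKM in untreated CK-p25 neurons and 2.56 ± 0.648 FPKM in CK neurons (SD, n = 5 each), a log2 change of 1.27 (SE 0.16, limma adjusted p = 0.000841). Mcm7 averaged 7.28 ± 1.55 FPKM in CK-p25 neurons and 3.06 ± 0.953 FPKM in CK neurons (SD, n = 5 each), a log2 change of 1.04 (SE 0.18, limma adjusted p = 0.0097). FPKM is scaled to length, so levels can be set beside each other: in CK neurons Mcm3 was listed lowest of the 6 and Mcm7 highest by mean, while in CK-p25 neurons the 6 means lay between 5.18 FPKM for Mcm5 and 9.56 FPKM for Mcm3.

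**Figure D2:**
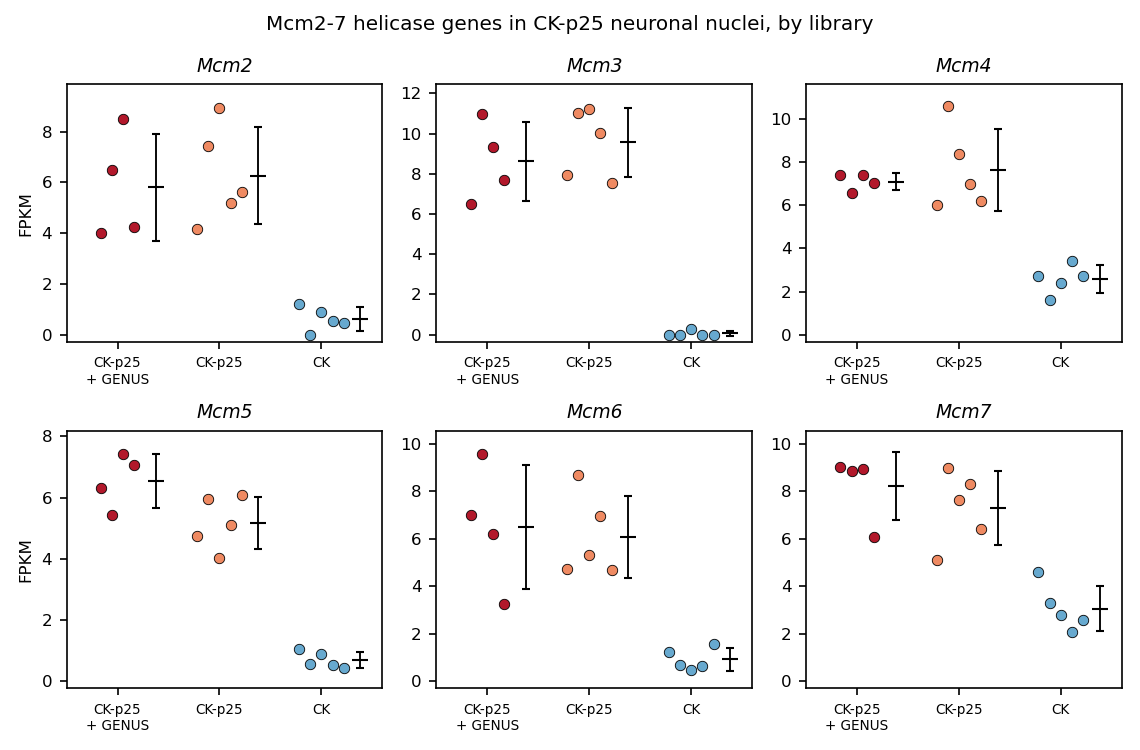
FPKM of the 6 Mcm2-7 subunit genes in each CK-p25 neuron library, with GENUS CK-p25, untreated CK-p25 and CK from left to right; points are libraries, and bars give the mean and SD. In each panel all CK-p25 libraries, with or without GENUS, lie above all CK libraries.

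Low FPKM values in the neuron libraries fell on evenly spaced steps, which allows the libraries' relative depth and the size of 1 step to be read from the files. Set to a median of 1 over the CK-p25 neuron libraries, relative depth was 0.858 to 1.08 in GENUS CK-p25, 0.830 to 1.42 in untreated CK-p25 and 0.723 to 1.26 in CK neurons, so the groups overlapped in depth. After correction for depth, Mcm3 stood at 21 to 31.5 times its smallest value above 0 in untreated CK-p25 neurons, with a median of 28, against 0 to 1 in CK neurons. For Cdt1 the multiples were 6 to 19, with a median of 11, in untreated CK-p25 neurons, against 0 to 2 in CK neurons. Those of E2f7 were 16 to 28.9, with a median of 18, against 0 to 1 in CK neurons. Of the values above 0, 8 of 10 for Mcm3, 12 of 12 for Cdt1 and 11 of 11 for E2f7 were whole multiples within 0.1. Whether 1 step is 1 fragment, and the absolute depth, are not known, so a listing at 0 is given only as such.

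Among the licensing factors, Cdt1 and Orc6 rose. Cdt1, which brings the Mcm ring to origins, had 2.04, 1.85, 3.84, 4.58 and 1.99 FPKM in untreated CK-p25 neurons, against 0.480, 0.301, 0, 0.287 and 0 FPKM in CK neurons (log2 change 1.63, SE 0.25, limma adjusted p = 0.00379). The groups did not overlap, but Cdt1 had a CK mean under 1 FPKM and so entered the test through the CK-p25 libraries. Orc6, an origin recognition subunit, had a higher CK level and a small change, at 11.4, 12.4, 12.1, 19.0 and 11.8 FPKM in CK-p25 neurons, against 8.24, 8.08, 9.09, 7.80 and 9.56 FPKM in CK neurons (log2 change 0.57, SE 0.12, limma adjusted p = 0.0415). The call of Orc6 was lost when any of 8 of the 10 libraries was left out. Orc1 and Cdc6 did not reach the filter. Cdc6, the loader's ATPase partner, nevertheless had 0.669 to 1.06 FPKM in CK-p25 neurons, against 0.0944 to 0.654 FPKM in CK neurons, with every CK-p25 library above every CK library.

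At the step that activates the helicase, Cdc45, Clspn and Timeless rose, and GINS did not pass the test. Cdc45, which binds Mcm2-7 to form the active helicase, had 3.995, 8.21, 6.04, 6.17 and 5.03 FPKM in untreated CK-p25 neurons, against 0.608, 0.925, 0.915, 0.363 and 1.09 FPKM in CK neurons (log2 change 1.94, SE 0.18, limma adjusted p = 4.73e-05). Clspn encodes claspin, a fork protein that passes the checkpoint signal to Chk1, and had 2.78, 6.23, 3.12, 4.75 and 3.499 FPKM in CK-p25 neurons, against 0, 0, 0.599, 0.241 and 0.148 FPKM in CK neurons (log2 change 2.06, SE 0.21, limma adjusted p = 0.000136). Timeless, a fork protection factor, had 9.13, 13.3, 10.1, 11.01 and 10.03 FPKM in CK-p25 neurons, against 2.49, 1.30, 1.95, 1.65 and 1.35 FPKM in CK neurons (log2 change 2.10, SE 0.16, limma adjusted p = 6.23e-06). For these 3 genes the lowest CK-p25 library exceeded the highest CK library in each. Cdc45 and Clspn averaged 0.780 and 0.198 FPKM in CK neurons and so entered the test through the CK-p25 libraries. The partner of Timeless, Tipin, had a log2 change of 0.74 that did not pass (limma adjusted p = 0.164), and Gins1, a GINS subunit, had 1.18 (limma adjusted p = 0.31). Cdc7, the kinase that triggers origin firing, had 0.54 (limma adjusted p = 0.0823).

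Of the 7 polymerase and primase genes, 6 were called higher in untreated CK-p25 neurons. Pole, the catalytic subunit of leading-strand polymerase epsilon, had 3.92, 7.18, 5.58, 7.69 and 6.74 FPKM in untreated CK-p25 neurons, against 0.768, 0.350, 0.237, 0.668 and 0 FPKM in CK neurons (log2 change 2.36, SE 0.22, limma adjusted p = 3.5e-05). The groups did not overlap, and the Pole change was second in size to that of Mcm3. Pole averaged 0.405 FPKM in CK neurons and so entered the test through the CK-p25 libraries. Pola1, the catalytic subunit of polymerase alpha, already stood at 5.96 ± 0.957 FPKM in CK neurons and averaged 12.8 ± 1.99 FPKM in CK-p25 neurons (SD, n = 5 each; log2 change 0.98, limma adjusted p = 0.000616). The primase subunit Prim1 had a log2 change of 1.26 (limma adjusted p = 0.00926), Pola2 of 1.04 (limma adjusted p = 0.0176) and Pold1, the catalytic subunit of polymerase delta, of 0.97 (limma adjusted p = 0.0436). Prim2 had 0.66 (limma adjusted p = 0.0364), and its groups overlapped. The calls of Pold1 and Prim2 were each lost when any of 7 of the 10 libraries was left out, and that of Pola2 when either of 2 was. Pole2, the accessory subunit of polymerase epsilon, did not pass, at 1.09 (limma adjusted p = 0.217).

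Of the 8 clamp and Okazaki genes, only Lig1 was called in untreated CK-p25 neurons. Lig1, the ligase that seals Okazaki fragments, had 20.1, 28.6, 26.8, 25.95 and 29.0 FPKM in CK-p25 neurons, against 9.13, 5.42, 8.29, 7.14 and 6.35 FPKM in CK neurons, with no overlap (log2 change 1.72, SE 0.13, limma adjusted p = 6.23e-06). The clamp itself, Pcna, is a widely used S-phase marker and had 9.89, 7.99, 5.77, 4.03 and 2.67 FPKM in CK-p25 neurons, against 2.22, 1.67, 3.01, 0.530 and 5.29 FPKM in CK neurons. Its groups overlapped and it was not called (log2 change 1.04, limma adjusted p = 0.287). Fen1, the flap nuclease that acts just before Lig1, was at the same mean within the spread, 2.12 ± 0.989 FPKM in CK-p25 neurons and 2.18 ± 0.9002 FPKM in CK neurons (SD, n = 5 each). None of the 5 clamp loader genes, Rfc1 to Rfc5, was called, with log2 changes between -0.22 and 0.54.

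In nucleotide supply, the thymidylate synthase gene Tyms averaged 3.88 ± 0.7001 FPKM in untreated CK-p25 neurons and 1.42 ± 0.417 FPKM in CK neurons (SD, n = 5 each), with a log2 change of 1.02 (SE 0.16, limma adjusted p = 0.00601). Rrm1, the large subunit of ribonucleotide reductase, had 0.46 and was not called (limma adjusted p = 0.233). Rrm2, the subunit that limits that enzyme in S phase, stayed under the filter. Rrm2 had 0, 0.621, 0, 0.242 and 0 FPKM in CK-p25 neurons, against 0.724, 0, 0, 0.288 and 0 FPKM in CK neurons, so the 2 groups overlapped fully, with 3 libraries listed at 0 in each. Tk1, the S-phase thymidine kinase, had 0, 2.08, 0, 0.836 and 1.87 FPKM in CK-p25 neurons, against 0, 1.56, 0, 0 and 0 FPKM in CK neurons, which also overlapped.

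E2f1 and E2f7 rose among the regulators. E2f1, an activating E2F that drives entry into S phase, had 4.01, 7.81, 4.76, 4.21 and 5.89 FPKM in untreated CK-p25 neurons, against 3.27, 1.42, 0.652, 0.689 and 1.42 FPKM in CK neurons (log2 change 1.41, SE 0.24, limma adjusted p = 0.00867). E2f7, an atypical E2F that represses E2F targets late in S phase, had 1.75, 1.88, 1.92, 2.66 and 1.17 FPKM in CK-p25 neurons, against 0.0916, 0, 0.0777, 0 and 0 FPKM in CK neurons (log2 change 1.46, SE 0.21, limma adjusted p = 0.00262). Neither gene's groups overlapped. E2f7 averaged 0.0338 FPKM in CK neurons and so entered the test through the CK-p25 libraries. The related repressor E2f8 stayed under the filter, at 0.146, 1.24, 0.413, 1.24 and 0.312 FPKM in CK-p25 neurons, and was listed at 0 in all 5 CK libraries. Ccne1, the cyclin that starts S phase with Cdk2, averaged 10.2 ± 3.45 FPKM in CK-p25 neurons and 4.74 ± 1.31 FPKM in CK neurons (SD, n = 5 each; log2 change 0.94, limma adjusted p = 0.0415), a call lost when any of 7 of the 10 libraries was left out. Ccne2 (0.87, limma adjusted p = 0.137) and E2f3 (0.16) were not called.

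The chromatin genes Uhrf1, Chaf1a and Dtl rose. Uhrf1, which guides maintenance methylation to new DNA, had 1.43, 5.14, 2.15, 1.96 and 1.61 FPKM in untreated CK-p25 neurons, against 0.150, 0.188, 0.127, 0 and 0.441 FPKM in CK neurons (log2 change 1.47, SE 0.25, limma adjusted p = 0.00731). CK-p25 library 2 stood apart from the other 4 for this gene, yet all 5 lay above every CK library. Uhrf1 averaged 0.181 FPKM in CK neurons and so entered the test through the CK-p25 libraries. Chaf1a, the large subunit of the histone chaperone CAF-1, averaged 6.93 ± 1.52 FPKM in CK-p25 neurons and 2.01 ± 0.585 FPKM in CK neurons (SD, n = 5 each; log2 change 1.39, limma adjusted p = 0.000841). Dtl, the adaptor that targets Cdt1 for destruction, had a log2 change of 0.73 (limma adjusted p = 0.0201), a call lost when either of 2 libraries was left out, and Chaf1b had 1.03 without a call (limma adjusted p = 0.17).

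Summed over the 50 genes, FPKM was 262 to 360 in untreated CK-p25 neurons, against 129 to 155 in CK neurons. The share held by the licensing and helicase genes was 47.5 to 68.7 FPKM in CK-p25 neurons, against 14.99 to 20.01 FPKM in CK neurons. CK libraries thus formed a narrow band below every CK-p25 library in both sums.

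**Figure D3:**
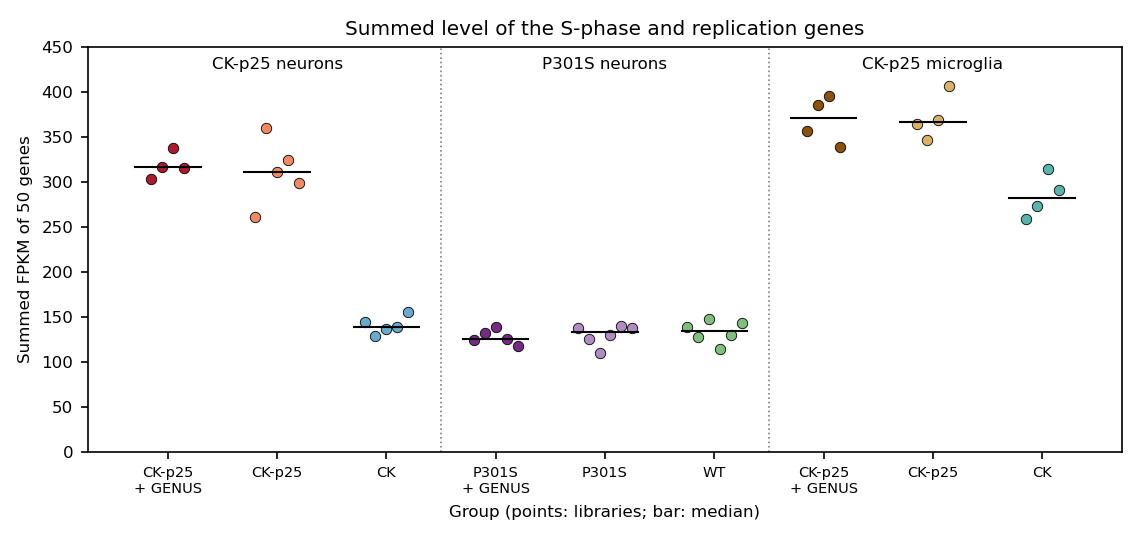
Summed FPKM of the 50 genes in each of the 43 libraries, by group, for the 3 sets. CK-p25 neuron libraries reach 262 to 360 and CK neuron libraries 129 to 155, while the P301S set lies between 109 and 148 in all 17 libraries; sums are read within a set only.

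Stimulation left the level of these genes in CK-p25 neurons without a detected change. Between GENUS and untreated CK-p25 neurons, 0 of 43 tested genes were called, as were 0% of all tested genes (limma). An unadjusted p under 0.05 was reached by 3 genes, against 7.42% of all tested genes, and the median log2 change was 0.04. Gins4, a GINS subunit, had 8.81, 8.03, 12.1 and 6.97 FPKM in GENUS neurons, against 4.73, 6.78, 6.08, 5.72 and 4.88 FPKM in untreated CK-p25 neurons (log2 change 0.57, SE 0.22, limma adjusted p = 0.602). Rfc5 had 3.98, 3.07, 5.41 and 5.34 FPKM in GENUS neurons, against 2.97, 2.40, 2.48, 2.19 and 4.21 FPKM in untreated CK-p25 neurons (log2 change 0.50, SE 0.18, limma adjusted p = 0.572). Fen1 had 4.44, 3.92, 2.18 and 5.87 FPKM in GENUS neurons, against 1.86, 3.34, 0.751, 2.77 and 1.89 FPKM in untreated CK-p25 neurons (log2 change 0.72, SE 0.29, limma adjusted p = 0.617). The groups did not overlap for Gins4, as for 1.29% of all tested genes in that direction, and overlapped for Rfc5 and Fen1.

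GENUS CK-p25 neurons against CK neurons gave 23 genes called higher and 0 lower of 43, against 1.07% of all tested genes called higher and 0.382% called lower. Of the 43, 13 had a CK mean under 1 FPKM, and among the other 30 the calls numbered 13. Mcm3, Clspn, Mcm5, Pole, Mcm2, Cdt1, Mcm6, Cdc45 and E2f7 are among those under 1 FPKM and entered through the CK-p25 libraries. This comparison uses the same CK libraries as the untreated one, so the values are set side by side and are not a second measurement. Mcm3 had 6.497, 11, 9.33 and 7.68 FPKM in GENUS neurons (log2 change against CK 3.17, SE 0.18, limma adjusted p = 3.44e-07). Clspn had 3.76, 4.44, 5.90 and 4.88 FPKM in GENUS neurons (log2 change 2.27, SE 0.23), and Mcm5 had 6.30, 5.42, 7.42 and 7.06 FPKM (log2 change 2.16, SE 0.17). Pole had 3.76, 5.37, 6.94 and 4.28 FPKM in GENUS neurons, with a log2 change of 2.12 against CK. All 4 genes lay above every CK library in every GENUS library.

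Further down the same ranking, Mcm2 had 4.02, 6.502, 8.48 and 4.24 FPKM in GENUS neurons (log2 change 2.07), and Timeless had 9.34, 9.71, 14.3 and 8.52 FPKM (2.05). Cdt1 had 5.67, 2.64, 4.18 and 3.09 FPKM (1.99), and Mcm6 had 6.98, 9.57, 6.19 and 3.24 FPKM (1.93). These 4 were called as well, with limma adjusted p between 2.11e-05 and 0.00143, and none overlapped with CK. Chaf1a had 6.99, 7.31, 10.4 and 9.14 FPKM in GENUS neurons (log2 change 1.66), and Lig1 had 19.7, 25.5, 24.1 and 24.6 FPKM (1.58). Cdc45 had 4.84, 3.64, 3.97 and 4.46 FPKM (1.57), and E2f7 had 2.51, 1.11, 2.16 and 2.66 FPKM (1.56). Groups did not overlap in 28 of 43 tested genes, against 3.71% of all tested genes, and 49 of the 50 genes had a higher mean in GENUS than in CK neurons. Tipin was called in the GENUS comparison and not in the untreated one (log2 change 0.99, limma adjusted p = 0.0468), and its call was lost when any of 8 of the 9 libraries was left out. Orc6, Ccne1 and Pold1 were called in the untreated comparison and not in the GENUS one. The direct comparison of GENUS with untreated neurons called none of these 4 genes.

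Other genes of the cell cycle moved in part. Of 51 further replication genes, 45 were tested and 8 were called higher and 0 lower in untreated CK-p25 neurons, with a median log2 change of 0.36. They included Rad51ap1, a recombination factor (2.22, limma adjusted p = 0.000841), Dnmt1, the maintenance DNA methyltransferase (0.80, limma adjusted p = 0.000746; 32.4 and 18.3 FPKM on average in CK-p25 and CK neurons), Atad2 (0.90), Topbp1 (0.86), Pold3 (0.69) and Chtf18 (1.38). Rad51ap1 and Chtf18 averaged 0.514 and 0.513 FPKM in CK neurons and so entered the test through the CK-p25 libraries. In GENUS neurons 11 of the 45 were called higher against CK. Of 22 genes of G1 to S control, 16 were tested and 1 was called: Rbl1, which encodes the pocket protein p107, averaged 6.15 FPKM in untreated CK-p25 neurons and 1.43 FPKM in CK neurons (log2 change 1.56, limma adjusted p = 0.000143). Cdkn1a, the gene of the Cdk inhibitor p21, was not called in neurons (0.27, limma adjusted p = 0.808).

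Genes of mitosis were mostly under the filter in neurons, and 12 of 30 were tested. Called higher in untreated CK-p25 neurons were Top2a, a topoisomerase of S and G2 phases (log2 change 1.60, limma adjusted p = 0.000381), and Mki67, the gene of the Ki-67 antigen (1.56, limma adjusted p = 0.000746). Top2a averaged 2.16 FPKM and Mki67 2.27 FPKM in untreated CK-p25 neurons, against 0.0282 and 0.0969 FPKM in CK neurons. Both genes thus entered the test through the CK-p25 libraries. GENUS neurons had 3 called, with Tpx2 added. Cdk1, the kinase of mitotic entry, averaged 0.659 and 0.599 FPKM in GENUS and untreated CK-p25 neurons, and was listed at 0 in every CK library. Ccnb1, its cyclin, was listed at 0 in every untreated CK-p25 and CK library.

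Markers of other cell types were read in the same neuron libraries. The 20 microglia markers summed to 29.0 to 44.2 FPKM in GENUS CK-p25, 17.3 to 27.2 FPKM in untreated CK-p25 and 12.3 to 17.6 FPKM in CK neurons, and 1 of 8 tested markers, C1qc, was called higher in untreated CK-p25 neurons. C1qc and Tyrobp were listed at 0 in every CK library. In GENUS CK-p25 against CK neurons 3 of the 8 were called higher, C1qa (1.76), C1qc (1.62) and Ctss (1.20). The 12 astrocyte markers summed to 207 to 330, 157 to 216 and 158 to 193 FPKM in GENUS CK-p25, untreated CK-p25 and CK neurons, and 1 of 11 tested, Gfap, was called higher in untreated CK-p25 neurons (log2 change 2.52, limma adjusted p = 0.000456), as it was in GENUS neurons (3.17). The 12 neuron markers summed to 1133 to 1249.5 FPKM in GENUS CK-p25, 1187 to 1311 FPKM in untreated CK-p25 and 1280 to 1397 FPKM in CK neurons. Of these, 1 of 12 tested was called lower in untreated CK-p25 neurons, Tubb3, at 10.8 FPKM on average against 17.3 FPKM in CK neurons (log2 change -0.65, limma adjusted p = 0.0209), and 0 were called in the GENUS comparison with CK. The 8 oligodendrocyte precursor markers summed to 5.90 to 10.3, 3.82 to 8.37 and 4.18 to 7.61 FPKM in the same order of groups. The 10 oligodendrocyte markers summed to 71.7 to 102, 66.2 to 83.4 and 81.7 to 121 FPKM. The 11 endothelial and pericyte markers summed to 3.70 to 15.4, 3.53 to 5.74 and 4.16 to 11.8 FPKM. In the untreated comparison only 1, 7 and 1 markers of these lists were tested, and 0 were called. The part of the microglial, astrocytic and neuronal marker differences in the replication genes was not tested.

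In P301S neurons 0 of the replication genes were called. Of the 50 genes, 29 passed the filter in that set, and in untreated P301S against WT neurons the 0 called stood against 0.00817% of all 12239 tested genes (limma). An unadjusted p under 0.05 was reached by 2 genes, against 5.64% of all tested genes. Mcm3 had 0, 0, 0, 0.348 and 0.214 FPKM in GENUS P301S neurons, was above 0 in 2 of 6 untreated P301S libraries, at 0.301 and 0.407 FPKM, and was listed at 0 in all 6 WT libraries. No library of that set thus exceeded 0.407 FPKM. Timeless ranged from 0.578 to 2.44 FPKM, with a median of 1.35 FPKM, in untreated P301S neurons, against 0.839 to 2.71 FPKM, with a median of 1.22 FPKM, in WT neurons. Lig1 ranged from 9.42 to 14.9 FPKM, with a median of 10.5 FPKM, in untreated P301S neurons, against 6.05 to 12.2 FPKM, with a median of 9.91 FPKM, in WT neurons. Both genes overlapped between the groups.

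The P301S genes with the smallest unadjusted p are given with their values. Fen1 ranged from 0 to 2.03 FPKM (median 0.788) in untreated P301S neurons, against 0.626 to 4.13 FPKM (median 2.54) in WT neurons (log2 change -0.99, SE 0.32, limma adjusted p = 0.856). Mcm4 ranged from 1.92 to 4.06 FPKM (median 3.49) in untreated P301S neurons, against 0.884 to 2.44 FPKM (median 1.63) in WT neurons (log2 change 0.60, SE 0.22, limma adjusted p = 0.856). Gins4 ranged from 0.856 to 9.40 FPKM (median 3.72) in untreated P301S neurons, against 4.91 to 7.64 FPKM (median 5.69) in WT neurons (log2 change -0.65, limma adjusted p = 0.895). The groups overlapped for all 3. Relative depth ranged more widely in this set, from 0.458 to 1.39 in GENUS P301S, 0.683 to 1.26 in untreated P301S and 0.843 to 1.36 in WT neurons.

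GENUS against untreated P301S neurons likewise gave 0 of 29 genes called, against 0% of all tested genes, and 2 genes at an unadjusted p under 0.05, against 4.28%. Tipin had 4.30, 0, 2.85, 3.25 and 7.94 FPKM in GENUS neurons, against 2.46 to 13.8 FPKM (median 6.49) in untreated P301S neurons (log2 change -0.99). E2f3 had 4.76, 4.46, 5.51, 2.53 and 7.503 FPKM in GENUS neurons, against 5.74 to 7.53 FPKM (median 6.44) in untreated P301S neurons (-0.39), and Fen1 had 1.25, 1.90, 1.21, 2.87 and 1.505 FPKM in GENUS neurons (0.69). All 3 overlapped between the groups and had a limma adjusted p of 0.999. GENUS P301S against WT neurons also gave 0 called, against 0%, with 1 gene at an unadjusted p under 0.05, against 5.73%. The 3 with the smallest p were Pold1 (log2 change 0.49, limma adjusted p = 0.864), Mcm10 (0.71, limma adjusted p = 0.864) and Tipin (-0.81, limma adjusted p = 0.876). Pold1 had 1.36, 2.25, 2.67, 2.17 and 1.07 FPKM and Mcm10 had 1.57, 7.35, 2.96, 1.13 and 1.39 FPKM in GENUS neurons, against 0.708 to 1.45 FPKM (median 0.970) for Pold1 and 0.471 to 2.10 FPKM (median 0.950) for Mcm10 in WT neurons.

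The difference between the models was tested directly, as the untreated CK-p25 change minus the untreated P301S change in log2(FPKM + 1). It was called higher for 10 of 38 tested genes and lower for 0, against 0.273% of all 12460 tested genes called higher and 0.00803% called lower. Those genes were Mcm3 (3.16, limma adjusted p = 6.76e-10), Mcm2 (2.42), Pole (2.31), Timeless (2.15), Clspn (2.0), Cdc45 (1.71), Mcm5 (1.53), Lig1 (1.5), Chaf1a (1.20, limma adjusted p = 0.0443) and Pola1 (1.08). They cover licensing, helicase activation, priming, leading-strand synthesis, ligation and chromatin assembly. Of the 38 tested genes, 8 had a mean under 1 FPKM in CK neurons and in all 3 groups of the P301S set, so they entered through the CK-p25 libraries, and 6 of the 10 called genes were among them (Mcm3, Mcm2, Pole, Clspn, Cdc45 and Mcm5). Each model has its own controls, and model and set cannot be told apart.

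In microglia of CK-p25 mice part of these genes were called, over a much larger background of change. Some were not called in neurons, but a call in only 1 cell type is not a difference between them. The cell types are compared directly further below. Of the 50 genes, 38 passed the filter, and 13 were called higher and 1 lower in untreated CK-p25 against CK microglia, against 16.1% of all 10394 tested genes called higher and 10.9% called lower (limma). Of the 38, 6 had a CK mean under 1 FPKM and entered through the CK-p25 libraries, and among the other 32 the calls were 9 higher and 1 lower. Libraries 3 and 4 of both CK-p25 groups stood apart in the leukocyte markers Cd3g, Cd3e, Cd8a, Nkg7 and Ly6c2. The counts without these libraries are given beside those markers. Groups did not overlap, with CK-p25 higher, in 13 of 38 genes, against 15.9% of all tested genes. By role, 2 of 8 licensing and helicase genes, 3 of 8 of helicase activation, 0 of 6 polymerase and primase genes and 3 of 8 of the clamp group were called higher. Nucleotide supply gave 2 of 4, chromatin genes 2 of 2, and the E2F group 1 higher and 1 lower of 2.

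E2f1 had the largest called change in microglia, with 8.41, 4.15, 4.41 and 5.31 FPKM in untreated CK-p25 microglia, against 0.554, 1.10, 1.07 and 1.58 FPKM in CK microglia (log2 change 1.64, SE 0.23, limma adjusted p = 0.000101). E2f3 moved the other way, with 2.12, 2.75, 3.13 and 3.08 FPKM in CK-p25 microglia, against 4.15, 6.41, 4.16 and 5.74 FPKM in CK microglia (log2 change -0.69, SE 0.18, limma adjusted p = 0.0111). Neither gene overlapped between the groups. Mcm6 had 14.0, 17.9, 16.4 and 14.6 FPKM in CK-p25 microglia, against 7.46, 9.69, 9.13 and 7.38 FPKM in CK microglia (log2 change 0.83, SE 0.13, limma adjusted p = 0.000339). Mcm5 had 6.28, 7.63, 9.52 and 11.02 FPKM in CK-p25 microglia, against 2.90, 3.34, 6.54 and 3.601 FPKM in CK microglia (log2 change 0.94, limma adjusted p = 0.0085), and its groups overlapped. Mcm3, the gene with the largest change in neurons, had 39.6, 33.9, 37.5 and 38.7 FPKM in CK-p25 microglia, against 28.1, 33.1, 30.9 and 33.1 FPKM in CK microglia, a log2 change of 0.25 that was not called (limma adjusted p = 0.138). Mcm7, at 0.03, was not called either.

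**Figure D4:**
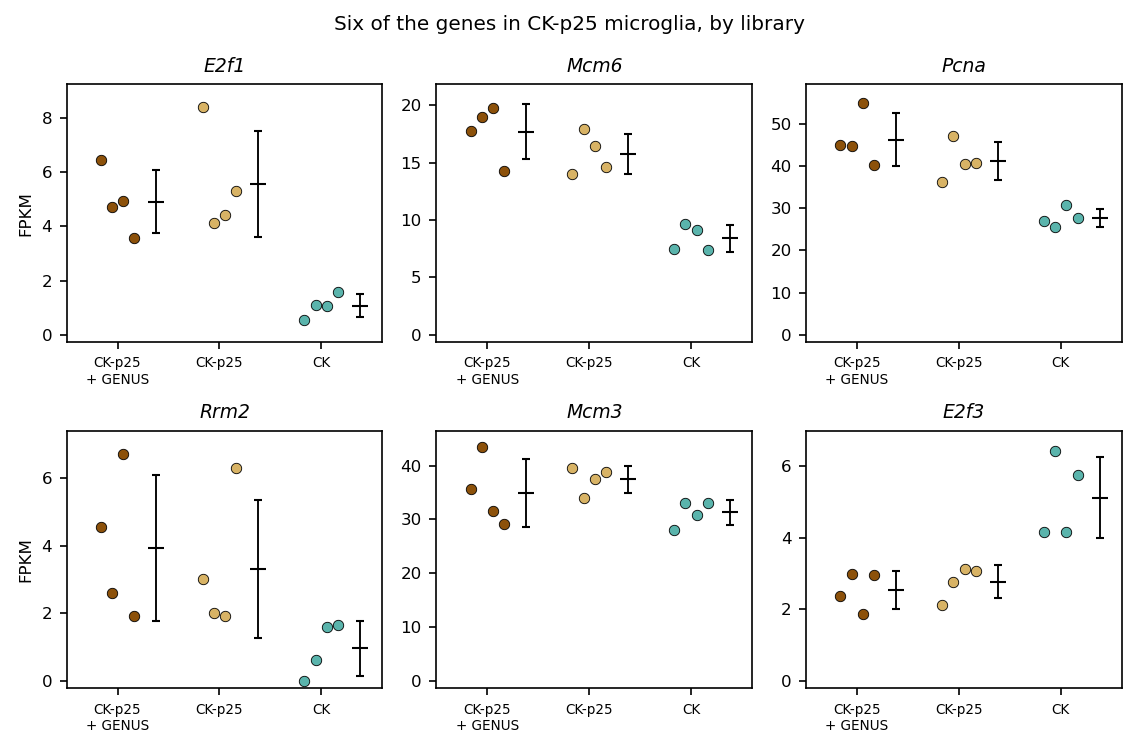
FPKM of 6 of the genes in each CK-p25 microglia library, with GENUS CK-p25, untreated CK-p25 and CK from left to right; points are libraries, and bars give the mean and SD (n = 4 each). E2f1, Mcm6 and Pcna lie higher in every CK-p25 library than in every CK library, E2f3 lies lower, and Mcm3 is at 28.1 to 43.4 FPKM in all 3 groups.

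Pcna, Tk1 and Rrm2 were called higher in microglia. Pcna had 36.1, 47.2, 40.5 and 40.8 FPKM in untreated CK-p25 microglia, against 27.0, 25.6, 30.7 and 27.7 FPKM in CK microglia (log2 change 0.55, SE 0.11, limma adjusted p = 0.00229). Tk1 had 4.87, 4.56, 4.26 and 5.81 FPKM in CK-p25 microglia, against 1.53, 1.31, 1.67 and 2.39 FPKM in CK microglia (log2 change 1.12, SE 0.23, limma adjusted p = 0.00259). Both genes were higher in all CK-p25 libraries than in any CK library. Rrm2 had 3.02, 2.002, 1.92 and 6.28 FPKM in CK-p25 microglia, against 0, 0.612, 1.59 and 1.66 FPKM in CK microglia (log2 change 1.13, limma adjusted p = 0.0461), without overlap, a call lost when any of 4 of the 8 libraries was left out. Its CK mean was 0.966 FPKM, so it entered the test through the CK-p25 libraries. Fen1 had a log2 change of 0.45 (limma adjusted p = 0.015), lost without CK-p25 library 1, and Rfc5 of 0.55 (limma adjusted p = 0.0127).

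Chromatin, fork and GINS genes were called in microglia as well. Chaf1b, the middle subunit of CAF-1, had 2.09, 2.34, 2.08 and 2.43 FPKM in untreated CK-p25 microglia, against 0, 0.320, 0.865 and 0.0702 FPKM in CK microglia (log2 change 1.34, limma adjusted p = 0.000801). Uhrf1 had 1.92, 1.67, 4.24 and 2.77 FPKM in CK-p25 microglia, against 0.105, 0.579, 0.611 and 0.323 FPKM in CK microglia (1.34, limma adjusted p = 0.00122). Timeless had 1.69, 1.27, 1.99 and 1.67 FPKM in CK-p25 microglia, against 0.324, 0.0185, 0 and 0.836 FPKM in CK microglia (1.08, limma adjusted p = 0.0112). These 3 genes did not overlap between the groups. Their CK means were 0.314 FPKM for Chaf1b, 0.404 FPKM for Uhrf1 and 0.295 FPKM for Timeless. All 3 thus entered the test through the CK-p25 libraries, which favours calls in that direction. The GINS genes Gins1 and Gins2 complete the list. Gins1 had 6.90, 6.02, 4.09 and 4.80 FPKM in CK-p25 microglia, against 1.88, 2.30, 0.620 and 4.09 FPKM in CK microglia (1.10, limma adjusted p = 0.0279), and Gins2 had 7.55, 8.31, 7.61 and 8.88 FPKM, against 4.07, 2.62, 6.38 and 5.19 FPKM (0.75, limma adjusted p = 0.00746). Gins1 overlapped between the groups and lost its call when any of 4 of the 8 libraries was left out, and Gins2 did not overlap.

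Of 30 genes of mitosis, 18 were tested in microglia. In untreated CK-p25 microglia 14 were called higher and 0 lower, against the same 16.1% background. Only 4 of the 30 had a CK mean of at least 1 FPKM. Most of the 18 thus entered through the CK-p25 libraries, which favours calls in that direction. Cdk1 averaged 5.83 FPKM in CK-p25 and 1.01 FPKM in CK microglia (log2 change 1.74, limma adjusted p = 0.000127). Of the further replication genes 13 of 39 were called higher and 2 lower. Gmnn, the gene of the licensing inhibitor geminin, averaged 10.2 FPKM in CK-p25 and 2.2 FPKM in CK microglia (1.79, limma adjusted p = 1.14e-05), and Cdca7 fell by 1.04 on the log2 scale. Cdkn1a averaged 81.8 FPKM in CK-p25 and 11.7 FPKM in CK microglia (2.73, limma adjusted p = 4.79e-07), while Cdkn1c, another Cdk inhibitor gene, fell by 1.26.

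Markers of other cell types also differed between the microglia groups. The 14 leukocyte markers summed to 46.2 to 1222, 181 to 536 and 256 to 429 FPKM in GENUS CK-p25, untreated CK-p25 and CK microglia, with 0 of 12 tested called in the untreated comparison. The granulocyte genes S100a8 and S100a9 had the highest means of the list in each group, with S100a8 at 177 FPKM in GENUS CK-p25, 119.7 FPKM in untreated CK-p25 and 178 FPKM in CK microglia. The GENUS mean of S100a8 rests on library 4. Its values there were 13.7, 42.1, 27.2 and 625 FPKM, against 124 to 209 FPKM in CK microglia. S100a9 was likewise highest in GENUS library 4, at 391 FPKM. The T cell gene Cd3g had 0, 0.534, 24.2 and 20.8 FPKM in GENUS CK-p25, 0, 0.295, 21.1 and 22.6 FPKM in untreated CK-p25 and 0.0522, 0, 0.478 and 0.932 FPKM in CK microglia. Libraries 3 and 4 of both CK-p25 groups thus stood far above every other library. Cd3e, Cd8a and Nkg7 were highest in the same 4 libraries, with Nkg7, a gene of cytotoxic lymphocytes, reaching 89.6 FPKM in GENUS CK-p25 and 75.7 FPKM in untreated CK-p25, against 9.02 FPKM in CK microglia. Cd4 did not split this way in untreated CK-p25, at 1.92, 1.40, 1.13 and 2.13 FPKM. In GENUS CK-p25 it had 0.428, 2.20, 2.38 and 4.20 FPKM. Ly6c2 was also highest in the same 4 libraries, with 0.754, 0.891, 93.1 and 76.3 FPKM in untreated CK-p25. With those 4 libraries left out, a step chosen after these values were seen, 9 replication genes were called higher and 1 lower in untreated CK-p25 against CK microglia. All 10 were among the 14 called with every library. The count is not set against the share of all genes called in that smaller run, so no excess is read from it. Libraries 3 and 4 of CK microglia were kept. Their Nkg7 was 9.02 and 7.07 FPKM, against 0.213 and 0 FPKM in CK libraries 1 and 2.

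Among the other marker lists in untreated CK-p25 against CK microglia, the only neuron marker tested, Snap25, was called lower (log2 change -1.62), and the neuron markers summed to 1.98 to 7.51 FPKM in untreated CK-p25 and 5.38 to 25.3 FPKM in CK microglia. Of the oligodendrocyte markers 1 of 9 tested was lower (Mag, -0.69), with sums of 136 to 238 FPKM in untreated CK-p25 and 152 to 977 FPKM in CK microglia. Of 9 astrocyte markers Gfap was higher (2.62) and Slc1a3 lower (-0.39), and of 5 endothelial and pericyte markers Flt1 was higher (1.23) and Pecam1 lower (-2.27). Of the 20 microglia markers themselves 7 were higher and 8 lower. The part of these lists in the replication genes was not tested.

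Stimulation did not move the genes detectably in microglia. GENUS against untreated CK-p25 microglia gave 0 of 38 called, against 0% of all tested genes (limma), and 2 at an unadjusted p under 0.05, against 7.33%. Pola2 had 9.58, 14.3, 11.2 and 11.8 FPKM in GENUS microglia, against 7.76, 6.55, 8.25 and 7.71 FPKM in untreated CK-p25 microglia (log2 change 0.56, limma adjusted p = 0.530). Tk1 had 2.16, 2.22, 4.05 and 1.13 FPKM in GENUS microglia, against 4.87, 4.56, 4.26 and 5.81 FPKM in untreated CK-p25 microglia (-0.85, limma adjusted p = 0.530). The groups did not overlap for either gene, as for 2.41% of all tested genes with GENUS higher and 2.08% with GENUS lower, and neither passed. Pold1 came next, at -0.23, with 7.59, 6.64, 7.46 and 8.65 FPKM in GENUS microglia, against 7.16, 9.58, 11.5 and 8.39 FPKM in untreated CK-p25 microglia, which overlapped.

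GENUS CK-p25 against CK microglia, which shares its CK libraries with the untreated comparison, gave 11 genes called higher and 1 lower of 38, against 17.3% and 13.4% of all tested genes. Among the 32 of these with a CK mean of at least 1 FPKM, 7 were called higher and 1 lower. Without the 4 libraries with high Cd3g the calls were also 7 higher and 1 lower, of 39 tested. That count is not set against the share of all genes called in the same run. Mcm6 had 17.8, 19.0, 19.7 and 14.3 FPKM in GENUS microglia (log2 change against CK 0.99, SE 0.13, limma adjusted p = 7e-05), and E2f1 had 6.44, 4.71, 4.94 and 3.59 FPKM (1.51). Pcna had 44.9, 44.6, 55.0 and 40.2 FPKM (0.71), and E2f3 had 2.37, 2.98, 1.87 and 2.96 FPKM (-0.78). In these 4 genes GENUS and CK libraries did not overlap. Rrm2 had 4.56, 2.60, 6.69 and 1.91 FPKM in GENUS microglia (1.33), and Uhrf1 had 1.79, 2.55, 1.46 and 1.02 FPKM (0.93). Chaf1b had 2.12, 2.18, 1.54 and 0.850 FPKM (1.04), and Timeless had 2.33, 2.75, 1.73 and 0.596 FPKM (1.11), the last 2 with overlap. Rrm2, Uhrf1, Chaf1b and Timeless had a CK mean under 1 FPKM and entered through the CK-p25 libraries. Gins2 had 6.40, 7.55, 6.70 and 6.91 FPKM (0.55), and Rfc5 had 8.81, 10.9, 11.97 and 8.64 FPKM (0.51). Fen1 was called with 16.1, 14.7, 16.7 and 14.6 FPKM (0.45), and Cdt1, which overlapped, with 5.75, 6.64, 6.87 and 6.39 FPKM (0.49). The calls of Rrm2 and Rfc5 were each lost when any of 3 of the 8 libraries was left out, that of Gins2 with any of 6 and that of Cdt1 with any of 7.

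The p25 effect was then compared between cell types, as the untreated change in neurons minus that in microglia. Of 45 tested genes, 15 were called higher and 1 lower, against 5.65% of all 13319 tested genes called higher and 7.23% called lower. Mcm3 had the largest difference (3.06, limma adjusted p = 1.9e-10), and the other 5 helicase subunits were called as well, with differences of 1.46 for Mcm2, 1.07 for Mcm4, 0.93 for Mcm5, 1.05 for Mcm6 and 1.01 for Mcm7. Pole (2.04), Clspn (1.83), Cdc45 (1.76), Pola2 (1.38), Lig1 (1.38), Cdt1 (1.31), Timeless (1.02), Tyms (0.93) and E2f3 (0.84) completed the genes with the higher change in neurons. Rfc5 was the 1 gene with the higher change in microglia (-0.77). For E2f1, Uhrf1, Chaf1b, Pcna, Gins1, Gins2, Tk1, Fen1 and Rrm2 the difference was not called. Pole and Clspn had a mean under 1 FPKM in both CK groups and entered through the CK-p25 neuron libraries. Library kit and RNA fraction differ between the cell types and cannot be told apart from the cell type in this contrast.

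**Figure D5:**
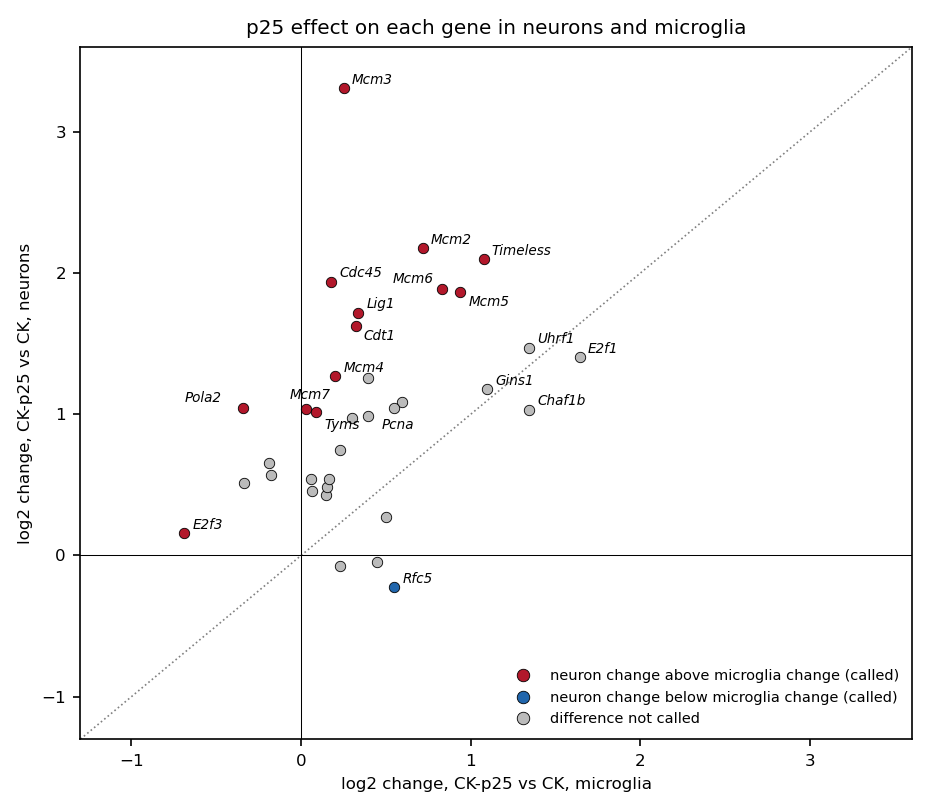
Log2 change of untreated CK-p25 against CK in neurons (vertical) and in microglia (horizontal) for the 35 genes tested in both sets, with a dotted line of equal change; colours show the called differences between cell types. Mcm3 stands highest, at 3.31 in neurons and 0.25 in microglia, while E2f1 and Chaf1b lie below the line without a called difference. Pole and Clspn, which were not tested in microglia, are not drawn.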

How the data were processed

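RNA was sequenced from 31 libraries of neuronal nuclei and 12 of microglia of mouse visual cortex. The deposited values are FPKM for 23953 gene symbols, 1 file a library. Per the submitters' processing notes, which state no role or order, the tools were STAR and Cufflinks 2.0.0 and the build was mm9. The gene annotation, the strand setting and any filter of the values were not found in these sources. FPKM values are not counts. Relative depth was recovered for neuron libraries from the steps between low values (2520 and 2518 low genes; 30.2% to 47.9% and 25.1% to 38% of ratios at 1 value; 78 of 78 and 120 of 120 library pairs within 0.02 on the log2 scale). In microglia 3.9% to 10.6% of ratios fell at 1 value and depth was not recovered. Absolute depth is unknown, so no counting interval is given.

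The 50 genes and all lists were chosen with earlier results of these data known. Genes with a mean of at least 1 FPKM over a set's libraries were kept (12567, 12239 and 10394 genes). Values were tested as log2(FPKM + 1), which understates the change of low genes, with limma 3.58.1 in R 4.3.3. The 3 groups of a set shared 1 estimate of the spread, moderated along the mean-variance trend. Two-sided p-values were adjusted by Benjamini and Hochberg's method over every tested gene, with a threshold of 0.05. Differences between models and between cell types were interaction contrasts over both sets. The test was checked on simulated data with 200 changed genes. Groups came from the sample titles, and no 2 files held identical values.

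Values by library are given for up to 12 called genes with the largest change in a comparison with controls, and for the 3 with the smallest p where none was called. Of other lists, up to 6 called genes are named by smallest p. Further genes were named after their values were seen. Same-numbered libraries were checked for pairing by the correlation of their deviations from group means. GENUS and untreated CK-p25 microglia had 4 of 4 pairs above 0.1, at 0.105 to 0.338. However, only 1 of 4 GENUS libraries correlated best with the untreated library of its own number. No label says what the numbers share, and the call counts with and without a block were 0 there. Alternatives were other filters, pseudocount 0.1, zeros set to missing, median-ratio rescaling, 2 groups in the fit, the block, leaving out each library, and, added after the values were seen, leaving out the 4 microglia libraries with Cd3g of at least 10 FPKM. Promoters are RefSeq, build GRCm38.p6, and no coordinate of the files' build is used.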

Additional observations from a re-analysis of the deposited data

Results flagged for a closer look

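Per-library values of 29 genes, in 103 combinations of gene and group, were checked for a library far from the rest by Dixon's criterion at 95%, which chance passes in about 1 of 20 groups. It was passed 2 times. Uhrf1 stood at 5.14 FPKM in untreated CK-p25 neuron library 2, against 1.43 to 2.15 FPKM in the other 4. Mcm3 stood at 0.303 FPKM in CK neuron library 3, with the other 4 listed at 0. With 4 values at 0, any value above 0 passes this criterion, so the Mcm3 flag is not read as a result.

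The change in untreated CK-p25 neurons minus that in untreated P301S neurons passed the interaction test for 10 genes, all higher in CK-p25: Mcm3 at 3.16, Mcm2 at 2.42, Pole at 2.31, Timeless at 2.15, Clspn at 2.0, Cdc45 at 1.71, Mcm5 at 1.53, Lig1 at 1.5, Chaf1a at 1.20 and Pola1 at 1.08 on the log2(FPKM + 1) scale.

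The change in untreated CK-p25 neurons minus that in untreated CK-p25 microglia passed for 16 genes. It was positive for Mcm3 (3.06), Pole (2.04), Clspn (1.83), Cdc45 (1.76), Mcm2 (1.46), Pola2 (1.38), Lig1 (1.38), Cdt1 (1.31), Mcm4 (1.07), Mcm6 (1.05), Timeless (1.02), Mcm7 (1.01), Mcm5 (0.93), Tyms (0.93) and E2f3 (0.84), and negative for Rfc5 (-0.77).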

How the results depend on the processing

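No called gene reversed under any alternative run. A filter of a mean of 5 FPKM, which tests fewer of these genes, gave 11 called in untreated CK-p25 against CK neurons, 11 in GENUS CK-p25 against CK neurons, 7 in untreated CK-p25 against CK microglia, 6 in GENUS CK-p25 against CK microglia, 1 for the difference between models and 9 for the difference between cell types. Pseudocount 0.1 gave 6 for the difference between models, and the cause was not tested. The counts under these settings are not set against the share of all genes called, so no excess is read from them. With each library left out in turn, the calls were 19 to 24, 22 to 23, 11 to 16 and 8 to 13 in the same 4 comparisons, 8 to 12 between models and 14 to 17 between cell types, and 0 to 0 in the 5 comparisons without calls. Calls over all tested genes in those runs were 77 to 149, 92 to 166, 2387 to 2640 and 2709 to 3244 in the 4 comparisons. They were 21 to 42 between models and 1419 to 1673 between cell types. Among the named genes, 110 results across alternatives lost their call and 1371 kept it or stayed uncalled.

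Without the 4 CK-p25 microglia libraries with Cd3g of at least 10 FPKM, a setting added after the data were seen, the difference between cell types gave 15 genes. With the replicate block, 20 genes were called in untreated and 20 in GENUS CK-p25 neurons against CK, 14 in each microglia comparison against CK, and 0 in the other 5. Neither these counts nor the 15 without those libraries are set beside the share of all genes called. Outside the pair of microglia groups named with the processing, same-numbered libraries correlated at -0.102 to 0.142. In each comparison of CK-p25 with CK microglia, 2 of 4 such pairs lay above 0.1. What the numbers share is not known. Exact zeros, FPKM of low genes and unknown absolute depth limit the genes near 0 in CK neurons.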
